A study of Rattus norvegicus with 6 samples.

Results

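Neutrophils are short-lived white blood cells that leave the bone marrow with their antimicrobial proteins already packed into granules. The genes of the primary granules are transcribed in early precursors and those of the later granules in more mature precursors, whereas S100a8 and S100a9 encode calcium-binding proteins that fill the cytosol of the mature cell. A healthy pituitary gland is densely supplied with blood vessels and holds few granulocytes, so transcripts of this kind are at low levels in the whole gland. Here 10 neutrophil granule genes, S100a8, S100a9, Camp, Ngp, Lcn2, Mpo, Elane, Ltf, Mmp8 and Retnlg, were followed across 6 pituitary libraries. They were found by their gene symbols among the 33294 symbols of the count tables, and all 10 were present. S100a8, S100a9, Camp and Ngp were chosen by their measured levels in these same libraries, as the genes called lower after nicotine once control replicate 2 was left out, so their difference between the groups is given as a description and nothing is read from a test of it. The other 6 were added as further genes of neutrophil granules or granulocytes.

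The glands came from male Sprague-Dawley rats aged 11 weeks. The nicotine group were 3 offspring of dams that carried a subcutaneous osmotic mini-pump with nicotine tartrate (6 mg/kg per day), and the control group were 3 offspring of dams whose pump held sterile saline. Each library came from 1 rat. The pump was placed during pregnancy, and its rated time of delivery ran past birth. Blood was taken from the rats under isoflurane before death, and whether the vessels of the gland were flushed, or which rats shared a litter, is not given in the sources used here. Whole glands were used, so fewer neutrophils and less RNA per neutrophil cannot be told apart.

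The counts are whole numbers per gene, with totals from 28318383 to 85977002 per library, and all 3 nicotine totals lay above 2 of the 3 control totals. The read numbers in the supplement of the study run the other way, with the largest library a control and the smallest a nicotine library. The highest nicotine total here exceeds every read number listed there for nicotine. The sources thus disagree on which libraries are nicotine. The sample titles were used, and the direction of each difference rests on them. Levels are given as CPM, a count per 1000000 counts after scaling the library total by its TMM factor, and 1 count was worth 0.0109 to 0.0369 CPM. The hormone genes Gh1, Prl and Pomc, which mark the anterior and intermediate lobes, lay between 17547 and 115788 CPM in all libraries.

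S100a8 and S100a9 encode the subunits of calprotectin, a dimer that binds calcium and withholds zinc and manganese from microbes. In the RefSeq table of the rat genome no other protein-coding gene lies between them. S100a8 was at 5.09, 6.10 and 5.30 CPM in nicotine replicates 1, 2 and 3, and at 35.3, 1.02 and 26.5 CPM in control replicates 1, 2 and 3. The nicotine rats thus lay close together, with control replicates 1 and 3 above them and control replicate 2 below them. The mean of the 3 nicotine libraries was 5.50 ± 0.532 CPM (SD) and that of the 3 control libraries 20.9 ± 17.8 CPM (SD). Nicotine against control gave a log2 fold change of -1.92 ± 0.79 (standard error, edgeR). For S100a9 the levels were 11.2, 10.04 and 10.9 CPM after nicotine and 63.3, 3.92 and 44.9 CPM in controls. The same 2 controls were high and the same control was the lowest library. The means were 10.7 ± 0.589 CPM after nicotine (SD, n = 3) against 37.4 ± 30.4 CPM (SD, n = 3), a log2 fold change of -1.80 ± 0.66 (standard error). The groups overlapped for both genes. Between the lowest and the highest library S100a8 differed 34.5-fold and S100a9 differed 16.2-fold.

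**Figure D1:**
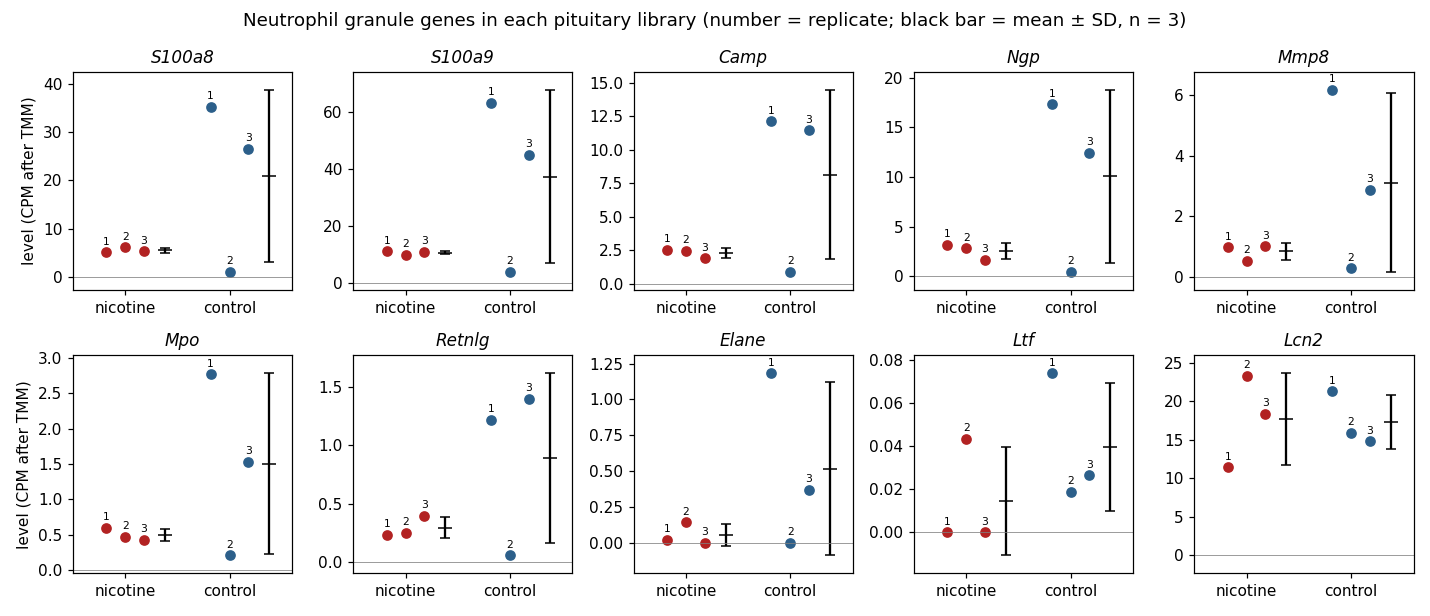
Level of each of the 10 genes in CPM after TMM (vertical axis, linear, one scale per gene) in the 3 nicotine and the 3 control libraries, with the replicate number at each point and the mean ± SD in black. Control replicates 1 and 3 are the highest libraries for S100a8, S100a9, Camp, Ngp, Mmp8, Mpo, Retnlg and Elane, and control replicate 2 lies at or near the bottom, whereas Lcn2 ranges from 11.4 to 23.2 CPM without this order.

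Camp encodes the rat cathelicidin, a protein of the specific granules that is cut to release an antimicrobial peptide, and Ngp encodes a granule protein with a related cathelin-like domain. Both lie on chromosome 8 in the RefSeq table, with 9 protein-coding genes between them. Camp was at 2.503, 2.45 and 1.88 CPM in nicotine replicates 1, 2 and 3 and at 12.1, 0.870 and 11.5 CPM in control replicates 1, 2 and 3. Ngp was at 3.14, 2.801 and 1.65 CPM in the nicotine libraries and at 17.3, 0.435 and 12.4 CPM in the control libraries. Again the nicotine libraries lay between control replicate 2 and the other controls. Camp had a log2 fold change of -1.83 ± 0.67 and Ngp one of -1.98 ± 0.83 (standard errors). In control replicate 2 the level of Ngp rested on 23 counts and that of Camp on 46 counts, so counting error alone is larger there than in the other libraries.

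Mmp8, which encodes neutrophil collagenase of the specific granules, was not among the genes noticed for their pattern. Its levels were 0.976, 0.532 and 1.01 CPM after nicotine and 6.17, 0.284 and 2.88 CPM in controls. Retnlg, which encodes a resistin-like protein made by granulocytes, was at 0.233, 0.250 and 0.397 CPM after nicotine and at 1.22, 0.0567 and 1.40 CPM in controls. In these genes too, control replicate 2 was the lowest library and control replicates 1 and 3 were the highest. The level of Retnlg in control replicate 2 rested on 3 counts. edgeR gave Mmp8 a log2 fold change of -1.88 ± 0.77 (standard error) with an adjusted p of 0.839, and Retnlg one of -1.56 ± 0.80 with an adjusted p of 0.839. Neither gene was called, for which a fold over 1.5 and an adjusted p below 0.1 were needed.

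Mpo and Elane belong to the primary granules, where myeloperoxidase makes hypochlorous acid and neutrophil elastase cuts matrix and bacterial proteins. Mpo was at 0.594, 0.467 and 0.430 CPM in the nicotine libraries and at 2.77, 0.208 and 1.53 CPM in the control libraries. For Mpo edgeR gave a log2 fold change of -1.57 ± 0.69 (standard error) with an adjusted p of 0.839. The counts of Elane were 1, 13 and 0 in the nicotine libraries, against 32, 0 and 14 in the control libraries in replicate order. The highest library was control replicate 1, at 1.18 CPM with an exact Poisson 95% interval of 0.808 to 1.67 CPM, which covers counting error only. The 0 counts of control replicate 2 allow a level of up to 0.0698 CPM by the same interval. Elane did not pass the filter on low counts and was not tested. Ltf, which encodes the iron-binding protein lactoferrin of the specific granules, had 4 counts in nicotine replicate 2, 0 in the other nicotine libraries and 1 or 2 in each control library. A difference in Ltf was not detectable at this depth.

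Lcn2, which encodes a lipocalin that captures bacterial siderophores, was first described in neutrophil granules but is also made by epithelial and glial cells. It was at 11.4, 23.2 and 18.3 CPM after nicotine and at 21.3, 15.9 and 14.8 CPM in controls. Here control replicate 2 lay between the other controls, and the lowest and the highest of all libraries were both nicotine libraries. edgeR gave a log2 fold change of 0.03 ± 0.25 (standard error) with an adjusted p of 0.987. Over all libraries the level of Lcn2 differed 2.04-fold, against 13.3-fold to 39.8-fold for the other 7 genes tested.

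The upstream sequences are shown for S100a9, Ngp and Mmp8, which shared the order of the libraries, and for Lcn2, which did not. They are the 250 bases before the gene start in RefSeq, build GRCr8, whereas the counts were made on rn7. A start sequence was matched by symbol for 8 of the 10 genes. Capitals mark matches on either strand to TTGCNNAA, a form of the site bound by C/EBP factors of the granulocyte lineage, to GAGGAA, the core bound by the myeloid factor PU.1, and to TATAAA, the TATA box. The 3 motifs do not overlap each other in these sequences.
S100a9 (GRCr8 chr2:178490623-178490872, minus strand): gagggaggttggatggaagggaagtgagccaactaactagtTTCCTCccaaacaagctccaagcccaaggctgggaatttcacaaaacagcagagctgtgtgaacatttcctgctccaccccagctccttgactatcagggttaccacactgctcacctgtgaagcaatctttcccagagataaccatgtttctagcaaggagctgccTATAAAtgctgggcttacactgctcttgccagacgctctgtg
Ngp (GRCr8 chr8:119272355-119272604, plus strand): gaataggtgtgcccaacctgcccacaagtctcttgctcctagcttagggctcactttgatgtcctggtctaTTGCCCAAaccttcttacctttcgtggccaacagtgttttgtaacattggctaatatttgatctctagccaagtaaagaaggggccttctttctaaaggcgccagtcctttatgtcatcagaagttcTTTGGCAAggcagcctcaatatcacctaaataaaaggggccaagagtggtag
Mmp8 (GRCr8 chr8:13008640-13008889, plus strand): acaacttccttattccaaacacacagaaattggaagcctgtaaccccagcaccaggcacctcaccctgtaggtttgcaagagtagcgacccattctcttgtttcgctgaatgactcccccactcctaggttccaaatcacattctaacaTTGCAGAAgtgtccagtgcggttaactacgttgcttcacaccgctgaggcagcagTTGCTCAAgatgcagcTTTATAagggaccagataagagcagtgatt
Lcn2 (GRCr8 chr3:36081781-36082030, minus strand): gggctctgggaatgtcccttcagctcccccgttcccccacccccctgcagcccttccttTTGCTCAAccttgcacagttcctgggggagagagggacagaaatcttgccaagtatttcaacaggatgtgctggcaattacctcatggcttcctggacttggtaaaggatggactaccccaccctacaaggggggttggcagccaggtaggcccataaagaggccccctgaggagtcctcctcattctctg
TTGCNNAA was found before 3 of the 8 genes, Ngp, Mmp8 and Lcn2, thus in genes with and without the shared order. It was found in 9.22% of the 33469 promoters searched over the same 250 bases. GAGGAA was found before 2 of the 8, S100a9 and Mpo, and in 23.3% of all promoters. TATAAA was found before 2 of the 8, S100a9 and Mmp8, and in 12.9% of all promoters. None of the 3 motifs was found before Camp and Retnlg, which also shared the order, or before Ltf. A match in these letters is a description and not a site of binding.

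Of the 4 tested members not chosen by their levels, Mmp8, Mpo and Retnlg had negative log2 fold changes and Lcn2 did not. A negative sign was found for 48.8% of the 17292 genes tested. For S100a8, S100a9, Camp and Ngp the negative sign is part of how they were chosen, so nothing is read from it. In 7 of the 8 tested members control replicate 2 was the lowest library. In the same 7 control replicates 1 and 3 were the 2 highest. These positions were held in 10.5% and 7.83% of all genes tested, and for S100a8, S100a9, Camp and Ngp they belong to the pattern by which the genes were picked. In edgeR's quasi-likelihood test 0 of the 4 tested genes that were not chosen by their levels, Mmp8, Mpo, Retnlg and Lcn2, were called, as were 0% of all genes. DESeq2 also called 0 of these 4, with 0.339% of all genes called. Their adjusted p in edgeR lay between 0.839 and 0.987. At an unadjusted p under 0.05 in edgeR, 2 of these 4, Mmp8 and Mpo, were lower after nicotine and 0 were higher, where 2.73% of all genes tested were lower and 3.12% were higher. Neither was under that p without control replicate 1 (0.268 for Mmp8 and 0.302 for Mpo, unadjusted, edgeR) or without any 1 of the nicotine replicates. Without control replicate 3 Mmp8 was under it and Mpo was not, and without control replicate 2 both were. Of the 8 genes 0 had groups that did not overlap, against 11.3% of all genes tested, 5.14% lower and 6.12% higher after nicotine. For each of the 7 genes with the shared order the SD of the control group was larger than the difference between the group means.

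The fold changes depended on which controls were kept. Without control replicate 1 the log2 fold change was -1.32 for S100a8, -0.90 for Mmp8 and -0.79 for Mpo. Without control replicate 2 it was -2.49 for S100a8, -2.34 for S100a9, -2.37 for Camp and -2.55 for Ngp. In that fit edgeR called these 4 genes and no other, 0.023% of the 17422 genes tested. It is the fit that picked them, so nothing is read from these calls, and 0 members were called in each of the other 5 fits with 1 library left out. Mmp8, Mpo and Retnlg were not called without control replicate 2, with log2 fold changes of -2.44, -2.11 and -2.15 (adjusted p of 0.274, 0.464 and 0.571 from edgeR). For Lcn2 the values without 1 library ran from -0.22 to 0.27.

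**Figure D2:**
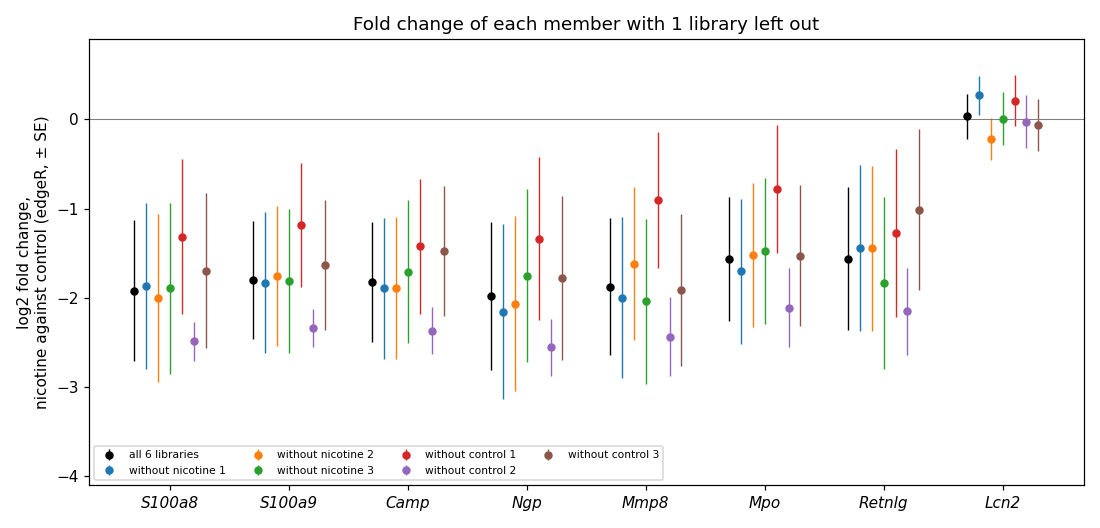
Log2 fold change of nicotine against control (vertical axis, edgeR, ± standard error) for the 8 tested genes with all 6 libraries in black and with 1 library left out in colour. S100a8, S100a9, Camp, Ngp, Mmp8, Mpo and Retnlg stay below 0 in each fit and are furthest below without control replicate 2, while Lcn2 stays between -0.22 and 0.27.

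The ratios between the counts of these genes within a library varied less between libraries than their levels did. They varied by 1.48-fold to 2.86-fold in 6 pairs compared. Pairs among S100a8, S100a9, Camp and Ngp hold only genes chosen for a shared pattern, so nothing is read from their steadiness. The count of S100a9 was 3.92 to 5.80 times that of Camp in the 6 libraries, 10.3 to 18.9 times that of Mmp8 and 18.8 to 29.3 times that of Mpo. S100a9 was at 1.65 to 2.19 times the count of S100a8 in 5 libraries and at 3.83 times in control replicate 2, where S100a8 had 54 counts. The ratio of Ngp to Camp was 0.877 to 1.43 in those 5 libraries and 0.5 in control replicate 2. S100a9 over Ngp was 3.55 to 3.65 in 4 libraries, 6.61 in nicotine replicate 3 and 9 in control replicate 2. Against Lcn2 the ratio varied 12.3-fold, since S100a9 had 2.97 and 3.04 times the counts of Lcn2 in control replicates 1 and 3 and 0.247 to 0.978 times in the other libraries. Among the 7 genes with the shared order, Pearson correlations of log2 CPM over the 6 libraries were between 0.928 and 0.990. This is a description of libraries that share their depth and RNA. The genes were grouped by that order, so nothing is read from the height of these values. With Lcn2 the same 7 genes had correlations of 0.115 to 0.225.

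Other neutrophil genes showed where this order was shared. Of 53 further genes of neutrophil granules, surface, oxidase and transcription factors, 42 were tested. DESeq2, run without the edgeR filter, called 2 of the 53, Hp and Slpi, against 0.339% of the 18001 genes to which it gave an adjusted p. The 53 include Cxcr1, with 0 counts in every library, so DESeq2 tested fewer than 53 of them. edgeR called 0 of the 42 and 0% of all genes. At an unadjusted p under 0.05 in edgeR, 11 of the 42 were lower and 0 were higher, against 2.73% lower and 3.12% higher among all genes. Their median log2 fold change was -0.53, and the median of all genes tested was 0.01. A lower median was not particular to neutrophil genes. It was -1.14 for the erythroid, -1.02 for the lymphocyte and -0.43 for the monocyte and macrophage list. For the eosinophil, mast cell and basophil list it was -0.57, and for the platelet list 0.11. Without control replicate 1 the number of other neutrophil genes lower at an unadjusted p under 0.05 in edgeR was 5. Without control replicate 3 or nicotine replicate 2 it was 7.

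Several granule genes outside the list had the same order of libraries, while others, such as Adam8, Olfm4 and Slpi, did not. Of the 42 further genes tested, control replicate 2 alone was the lowest library in 6, against 10.5% of all genes tested. Control replicates 1 and 3 were the 2 highest in 19 of the 42, against 7.83%. Mmp9, which encodes gelatinase of the tertiary granules, was at 0.955, 0.521 and 0.595 CPM after nicotine and at 4.14, 0.132 and 3.43 CPM in controls. Cd177, a neutrophil surface glycoprotein that is also stored in specific granules, was at 0.552, 0.554 and 0.578 CPM after nicotine and at 2.25, 0.0757 and 2.32 CPM in controls. The defensin gene Np4 ranged from 0.843 to 1.62 CPM after nicotine and was at 8.46, 0.0378 and 4.94 CPM in control replicates 1, 2 and 3. In control replicate 2 the level of Mmp9 rested on 7 counts, that of Cd177 on 4 and that of Np4 on 2. Np4 has close relatives such as RatNP-3b and Defa5, so its count depends on how shared reads were assigned. Ctsg, which encodes cathepsin G of the primary granules, was counted 39 and 19 times in control replicates 1 and 3 and 0 times in control replicate 2. It had 2, 23 and 0 counts in nicotine replicates 1, 2 and 3, so control replicate 2 shared its lowest count with nicotine replicate 3.

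Csf3r, the receptor of the granulocyte growth factor G-CSF, did not have the order of the members. It was at 2.18, 1.40 and 1.88 CPM in control replicates 1, 2 and 3 and at 0.976 to 2.02 CPM after nicotine. The chemokine receptor gene Cxcr2 and the formyl peptide receptor genes Fpr1 and Fpr2 were under 0.35 CPM in every library and were not tested. Cxcr2 had 9, 0 and 6 counts in control replicates 1, 2 and 3 and 4, 13 and 8 after nicotine, so its highest and lowest levels were in the same controls as for the members. Fpr1, Fpr2 and Trem1 also had 0 counts in control replicate 2, and Fpr2 had 0 in nicotine replicate 2 as well. The untested surface genes Clec4d and Ltb4r were instead lowest in nicotine replicate 2, with 4 and 0 counts there. The level in control replicate 2, divided by the mean of control replicates 1 and 3, was 0.0627 for Mmp8, 0.0967 for Mpo, 0.0433 for Retnlg and 0.879 for Lcn2. It was 0.0292 to 0.0738 for S100a8, S100a9, Camp and Ngp, which is part of how they were chosen. The median of this ratio was 0.208 over 7 other primary granule genes, 0.535 over 12 other later granule genes and 0.820 over 13 surface and signalling genes. For the 6 NADPH oxidase genes, which neutrophils share with macrophages, it was 0.876, and over all genes tested it was 0.987. A ratio under 0.5 was found for 12 of the 42 other neutrophil genes, against 2.19% of all genes.

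**Figure D3:**
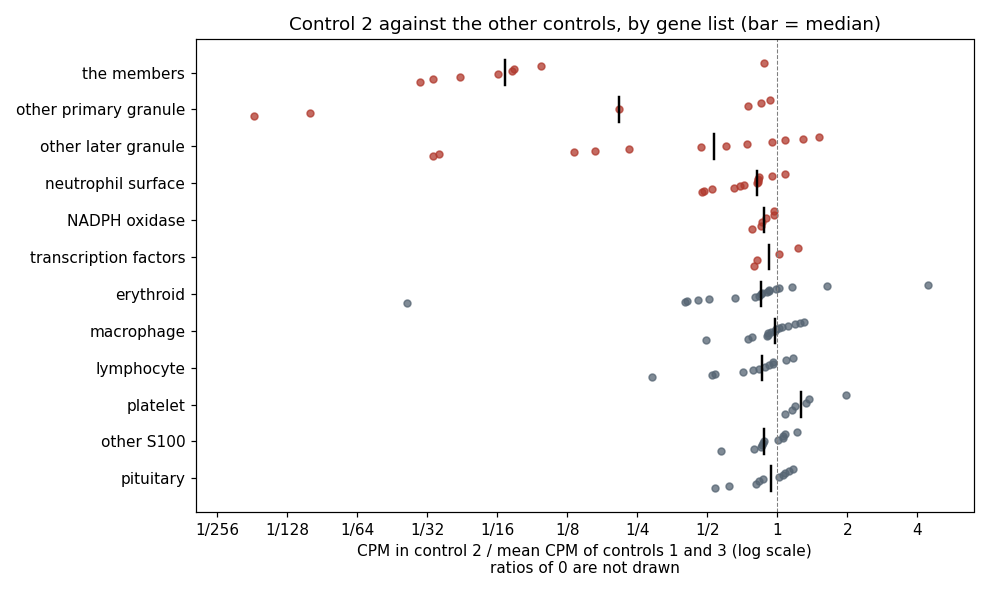
Ratio of the CPM in control replicate 2 to the mean CPM of control replicates 1 and 3 (horizontal axis, log scale) for each tested gene, by gene list, with neutrophil lists in red, other lists in grey and the median as a black bar; Ctsg, at 0, is not drawn. Mmp8, Mpo and Retnlg lie between 0.0433 and 0.0967 and the surface genes have a median of 0.820, and erythroid, macrophage, lymphocyte, platelet, other S100 and pituitary genes centre between 0.853 and 1.26.

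Of the 42 genes, 9 had groups that did not overlap, all lower after nicotine, against 5.14% of all genes. They included Hp, Slpi, Cst7, Srgn, Selplg, Itgam, Trem3 and Rac2, of which several are also expressed by other leukocytes. Hp encodes haptoglobin, which binds free haemoglobin and is stored in neutrophil granules besides being a liver protein. It was at 0.785, 1.14 and 1.17 CPM after nicotine and at 3.80, 2.33 and 3.91 CPM in controls, so control replicate 2 was the lowest control but still above each nicotine library. For Hp edgeR gave a log2 fold change of -1.68 ± 0.33 (standard error) with an adjusted p of 0.558, and values between -1.89 and -1.53 with 1 library left out. DESeq2 called it with an adjusted p of 0.00112. Slpi, which encodes an inhibitor of elastase and cathepsin G, was at 1.44, 1.34 and 1.55 CPM after nicotine and at 2.22, 3.56 and 4.36 CPM in controls. The log2 fold change of Slpi was -1.23 ± 0.31, with an adjusted p of 0.807 from edgeR and 0.0513 from DESeq2. For Slpi the lowest control was replicate 1.

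Most signals that draw neutrophils into tissue were near the limit of counting in all glands. Of 14 genes for chemoattractants, cytokines and adhesion molecules, 3 were tested, Il1b, Icam1 and Vcam1, with 0 past an unadjusted p of 0.05 in edgeR and 0 called. The level in control replicate 2, divided by the mean of control replicates 1 and 3, was 1.32 for Il1b, 1.54 for Icam1 and 1.07 for Vcam1. The chemokine genes Cxcl1, Cxcl2, Cxcl3 and Cxcl6 and the selectin genes Sele and Selp did not exceed 0.25 CPM in any library. Of 7 genes for receptors of the member proteins, 6 were tested and 0 were called, with 0 at an unadjusted p under 0.05. Tlr4, a receptor of calprotectin, was at 5.43, 11.2 and 6.77 CPM after nicotine and at 9.08, 6.54 and 6.52 CPM in controls, with overlapping groups. The other S100 genes did not share the order of S100a8 and S100a9. Their list held 12 S100 genes and the S100-binding protein gene S100pbp, of which 11 genes were tested and 0 were called, with 0 at an unadjusted p under 0.05. S100b, a marker of the folliculostellate cells of the gland, was at 94.6, 107 and 81.0 CPM in control replicates 1, 2 and 3.

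The lists of other blood cells are given for comparison. Of 18 erythroid genes tested, edgeR called 0, while 12 were lower and 0 were higher after nicotine at an unadjusted p under 0.05, and 6 were lower without overlap, against 2.73%, 3.12% and 5.14% of all genes. Their summed level was 3441 to 10679 CPM after nicotine and 8893, 11963 and 17617 CPM in control replicates 1, 2 and 3, so control replicate 2 was not the lowest control. The summed level of the 10 members was 35.1 to 46.1 CPM after nicotine and 161, 22.7 and 116 CPM in the same controls. Hba-a1, an alpha globin gene of a family with near-identical copies, was at 4068, 5988 and 8982 CPM in control replicates 1, 2 and 3. Some erythroid membrane genes came nearer to the order of the members. Rhag, which encodes a glycoprotein of the Rh complex, was at 1.11, 0.0189 and 0.370 CPM in control replicates 1, 2 and 3, with 1 count in replicate 2, and at 0.0991 to 0.403 CPM after nicotine. Its level in control replicate 2 was 0.0256 times the mean of the other controls, lower than for any tested member. Slc4a1, the anion exchanger of red cells, was at 44.3, 16.2 and 36.4 CPM in control replicates 1, 2 and 3 and at 6.70 to 17.2 CPM after nicotine.

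In the other lists the counts below are to be read against the 2.73% of all genes that were lower and the 3.12% that were higher at an unadjusted p under 0.05. Of 15 monocyte and macrophage genes 4 were lower at an unadjusted p under 0.05 in edgeR, and their sum was 177 to 357 CPM after nicotine and 298 to 392 CPM in controls. For lymphocytes, 5 of 12 tested genes were lower at that p, with sums of 37.6 to 42.7 CPM after nicotine and 52.6 to 54.0 CPM in controls. Platelet genes gave 0 of 6 tested, with sums of 12.4 to 37.7 and 16.8 to 24.0 CPM. Among eosinophil, mast cell and basophil genes 3 of 10 were tested, with 1 lower and 1 higher at that p. The lower one, Prg2, which encodes the major basic protein of eosinophil granules, was at 0.149 to 0.488 CPM after nicotine and at 1.40, 0.113 and 4.17 CPM in control replicates 1, 2 and 3, with the same control the lowest. Of 8 genes of dividing cells 0 passed that p, and of 4 tested bone genes 2 were lower, Ctsk and Col1a1. The osteoblast genes Bglap, Ibsp and Sp7 stayed under 0.52 CPM in every library. edgeR called none of the genes in these lists, and the part of these cell types in the levels of the members was not tested.

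**Figure D4:**
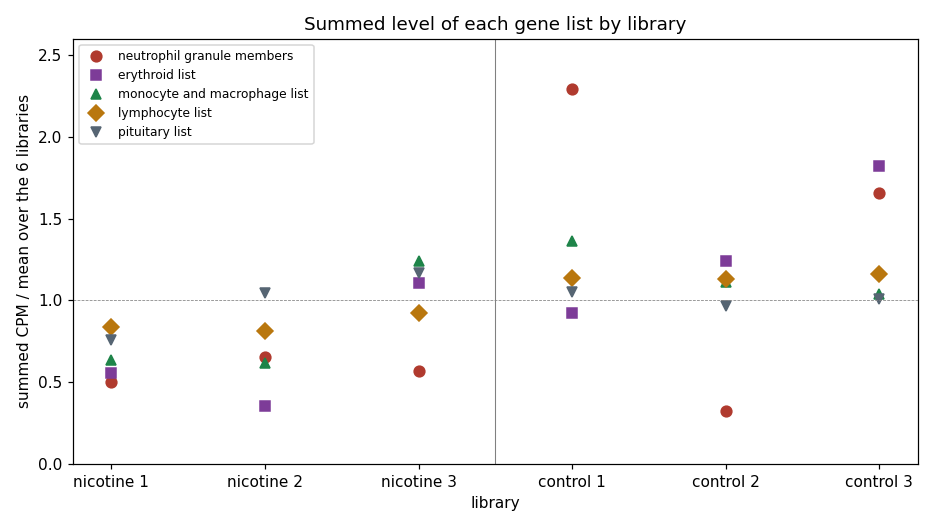
Summed CPM of each gene list divided by its mean over the 6 libraries (vertical axis) in each library (horizontal axis). The members, whose sums run from 22.7 to 161 CPM, are highest in control replicates 1 and 3 and lowest in control replicate 2, while erythroid and lymphocyte genes in control replicate 2 stay near or above the level of control replicate 1.

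The genes whose log2 CPM followed the mean of S100a8, S100a9, Camp and Ngp most closely over the 6 libraries were Stambpl1, Ola1, Mmp9, LOC24906, Cd177, Mcemp1, Ermap, Rtca, Defa5 and Fbxo9, with Pearson correlations from 0.971 to 0.994. They include granule genes such as Mmp9 and Defa5, and Mcemp1, a membrane protein gene of mast cells and neutrophils, at 0.246 to 1.22 CPM. Ermap encodes a membrane protein of erythroid cells. Ola1, Stambpl1, Rtca and Fbxo9 are expressed broadly and moved little, Ola1 from 53.5 CPM in control replicate 2 to 65.6 CPM in control replicate 3. Over all genes tested 90 genes, the members included, had a correlation of at least 0.9, or 0.520%.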

How the data were processed

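Pituitary RNA of 3 nicotine and 3 control rats was sequenced as strand-specific paired-end libraries. According to the methods of the study, reads were mapped to rn7 with HISAT2 (version 2.1.0 in the submitters' processing notes) and assigned by featureCounts to the UCSC ncbiRefSeq annotation. The deposited values are raw counts per gene symbol, not normalized by the authors. The handling of reads with several positions, and of pairs, is not given in the sources used here. Totals were 28318383 to 85977002 counts. Groups came from the sample titles. The read numbers per group in the supplement of the study do not match these titles, and which source is right was not settled.

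Counts were analysed in R 4.3.3 with edgeR 4.0.16 (filterByExpr, TMM, quasi-likelihood test, Benjamini-Hochberg adjustment over 17292 genes). DESeq2 1.42.0 was an alternative. Genes were called at a fold over 1.5 with an adjusted p below 0.1, the thresholds of the study. P-values treat these rats as independent and measure the spread between them, not between the treated dams. Which rats shared a litter is not given. Correlations used log2 CPM with a prior count of 2. The procedure was tested on simulated data.

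The members and lists were chosen with earlier results of these data known. Named genes were the members, genes of the lists, and the 10 genes most correlated with the mean of S100a8, S100a9, Camp and Ngp. Alternatives were DESeq2, RLE factors, no filter, a filter of 10 counts in every library, library sizes alone, thinning, an adjusted p under 0.05, a replicate block and leaving out each library. GRCr8 sequences from RefSeq were matched by symbol. Gene lengths were not used here, so levels were compared within genes.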

Additional observations from a re-analysis of the deposited data

How the results depend on the processing

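The log2 fold changes of S100a8, S100a9, Camp, Ngp, Mmp8, Mpo and Retnlg were below 0 under each alternative that could be computed. Retnlg gave none with at least 10 counts in every library. Lcn2 turned from 0.03 to -0.0015 with the replicate block and lay between -0.22 and 0.27 with 1 library left out, below 0 in 3 of those fits, and the cause was not tested. The number of members called was 0 to 4 with 1 library left out, 4 only without control replicate 2, and 0 in the other alternatives. Lower members at an unadjusted p under 0.05 numbered 6 (Mmp8, Mpo and the 4 genes chosen by their levels, for which it is a description), against 2 with DESeq2, 0 with the replicate block and 0 to 8 with 1 library left out (0 without control replicate 1, 8 without control replicate 2). Other neutrophil genes at that p numbered 11, against 5 to 15 with 1 library left out, and 0 were called, against 2 (Hp and Slpi) with DESeq2 and 1 (Hp) without a filter. Over all genes the calls numbered 0, against 61 with DESeq2, 30 without a filter, 1 with library sizes alone, 1 with at least 10 counts in every library, 1 after thinning, 2 with the replicate block and 0 to 4 with 1 library left out. Whether the replicate numbers pair the rats is not given in the sources used here. The deviations of same-numbered libraries from their group means correlated at 0.03, -0.20 and -0.08, which cannot settle it. Elane and Ltf are limited by depth.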
